A study of Mus musculus with 4 samples.

Results

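CC chemokine receptors are membrane receptors coupled to inhibitory G proteins that steer leukocytes along gradients of small secreted proteins, the CC chemokines. Different T helper subsets carry different sets of them: Ccr4 and Ccr8 are commonly found on Th2 cells, Ccr7 directs naive and central memory cells to lymphoid organs, Ccr9 and Ccr10 guide lymphocytes to the gut and to skin or mucosal surfaces, and Ccr3 is best known from eosinophils and has also been described on Th2 cells. Many of these receptors are regulated after signalling through the T cell receptor (TCR), as cells leave one tissue and enter another. The members described here are the 8 genes Ccr2, Ccr3, Ccr4, Ccr6, Ccr7, Ccr8, Ccr9 and Ccr10, chosen by name, of 18539 genes that could be named on the arrays. They were found through the RefSeq accessions of the probes and are covered by 11 of the 41174 probes, with 2 probes each for Ccr2, Ccr3 and Ccr4 and 1 probe for each of the others.

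RNA was measured in Th2 cells in 4 conditions, with 1 single-dye (Cy3) Agilent array for each. All cells were CD4 T cells from the spleens of female C57BL/6J mice aged 6 to 10 weeks, primed for 2 days on plates coated with an antibody to TCR-β (3 µg/ml) together with an antibody to CD28 (1 µg/ml), 10 ng/ml of IL-4 and 2.5 ng/ml of IL-2, then moved and kept for another 3 days with the same cytokines. The control cultures received no SH-2251, a small molecule that acts against IL-5 output, and the SH-2251 cultures received it in both phases, at 1 µM and then 1 mM by the sample labels, whereas the methods give a nanomolar dose, so the dose behind these arrays is uncertain. The methods also start from naive cells and add an antibody to IFN-γ, which the labels do not mention. From each culture, cells were taken without stimulation (resting) or after 4 h on plates coated with the antibody to TCR-β (restimulated). The arrays allow the effect of SH-2251 to be read in each state and the response to restimulation in each culture.

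With 1 array per condition there is no replicate check. No test or p-value between conditions is given, and the errors printed beside the differences are technical SDs from the scanner software's estimate for the spots, which leave out all variation between cultures and animals. The 4 arrays lay on 1 slide and were read in 1 scan. A level is the log2 intensity minus the 75th percentile of its array, which was 561, 614, 499 and 583 intensity units in the order resting control, resting SH-2251, restimulated control and restimulated SH-2251. Levels are compared between arrays for the same probe, never between probes, since probes differ in brightness for reasons other than the amount of RNA. The technical SD of most bright probes was about 0.204 for a difference. In such pools of cells, a lower level because fewer cells carry an RNA and a lower level because each cell carries less of it cannot be told apart.

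All 6 markers of CD4 T cells and all 6 of Th2 cells on the lists were well above background on the 4 arrays. With SH-2251 all 6 Th2 markers were lower in resting cells, 3 of them at least 2-fold (Il5 at -3.86, Il10 at -1.71 and Il13 at -1.32). In restimulated cells 5 were lower, of which Il5 (-3.01) was past 2-fold. The shares of all genes at least 2-fold lower were 2.9% in resting and 2.78% in restimulated cells. Their summed level was 137.9 and 100.1 in resting and 722 and 590.4 in restimulated cells, control before SH-2251, in multiples of the 75th percentile. Markers of other cells that could carry these receptors were also read. Of the 6 markers of eosinophils, basophils and mast cells, Epx, Prg2, Siglecf and Mcpt8 were not above background on any array. Cpa3 was above it on all 4 arrays, at levels of -2.61 to -2.42, and Fcer1a only in resting control cells, at -4.57. The summed level of the list was between 0.233 and 0.266 times the 75th percentile in the 4 conditions. Among the markers of B cells, Pax5 and Blk were below background throughout, and the summed level was 3.72 and 4.36 in resting and 2.92 and 4.76 in restimulated cells, control before SH-2251. Of the 6 myeloid and dendritic cell markers, Lyz2, Itgam and Itgax were below background throughout. Adgre1 (levels of 1.20 to 1.51), Csf1r and Cd14 were above it on all 4 arrays. The summed level of that list was 2.67 and 2.44 in resting and 2.86 and 3.00 in restimulated cells, in the same order. Their part in the Ccr2 values was not tested.

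Promoter sequences are shown for the members that were at least 2-fold higher after restimulation in both cultures, Ccr2, Ccr3 and Ccr8, and for Ccr4, in which the response was within 2 technical SDs. They are taken from a RefSeq table for assembly GRCm38.p6, which held 6 of the 8 members, all but Ccr7 and Ccr10, in 7 windows. Each runs 5′ to 3′ on the strand of the gene and covers the 250 bases before the annotated start. They lie at chr9:124101933-124102182 on the + strand for Ccr2, chr9:124021721-124021970 on the + strand for Ccr3, chr9:120091883-120092132 on the + strand for Ccr8 and chr9:114496545-114496794 on the - strand for Ccr4. Capitals mark the letters GGAAA (the core bound by NFAT factors), TGANTCA (the AP-1 site) and AGATAA (the core bound by GATA factors), searched on both strands. NFAT and AP-1 factors act downstream of the TCR, and Gata3 is the defining factor of Th2 cells.
Ccr2: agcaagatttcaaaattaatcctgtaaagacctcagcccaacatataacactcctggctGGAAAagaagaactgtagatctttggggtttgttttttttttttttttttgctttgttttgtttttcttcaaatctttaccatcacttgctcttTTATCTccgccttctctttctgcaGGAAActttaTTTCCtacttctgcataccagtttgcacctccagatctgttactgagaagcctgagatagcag
Ccr3: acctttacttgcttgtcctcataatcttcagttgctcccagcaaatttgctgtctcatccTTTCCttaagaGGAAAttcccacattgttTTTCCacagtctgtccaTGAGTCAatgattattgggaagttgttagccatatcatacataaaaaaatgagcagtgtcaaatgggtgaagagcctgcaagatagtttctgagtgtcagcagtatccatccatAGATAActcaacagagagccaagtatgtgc
Ccr8: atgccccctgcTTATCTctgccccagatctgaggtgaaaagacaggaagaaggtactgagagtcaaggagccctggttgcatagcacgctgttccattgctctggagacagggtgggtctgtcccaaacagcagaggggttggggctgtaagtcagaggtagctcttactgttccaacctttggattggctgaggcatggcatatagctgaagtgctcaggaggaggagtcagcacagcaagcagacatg
Ccr4: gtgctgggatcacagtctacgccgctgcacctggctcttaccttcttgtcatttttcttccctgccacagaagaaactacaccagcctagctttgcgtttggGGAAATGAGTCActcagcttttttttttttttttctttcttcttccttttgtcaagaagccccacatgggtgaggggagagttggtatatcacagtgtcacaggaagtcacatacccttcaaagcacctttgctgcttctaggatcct
In these windows Ccr2 had 3 matches to GGAAA and 1 to AGATAA, Ccr3 had 3 to GGAAA, 1 to TGANTCA and 1 to AGATAA, and Ccr8 had 1 match to AGATAA and none to the others. In Ccr4, 1 match to GGAAA was followed directly by 1 to TGANTCA. The Ccr6 windows, which stand for 2 annotated starts, each had 1 match to GGAAA and one of them 1 to AGATAA, and the Ccr9 window had no match to any of these letters. Among all 32851 promoter windows of this length, GGAAA occurred in 55.6%, TGANTCA in 6.75% and AGATAA in 9.99%. A match to such short letters is a description of the window and not a bound site.

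The plot of levels by condition sets the 8 receptors side by side. Of the 8 members, 7 were well above background on all 4 arrays, while Ccr10 was above background only on the SH-2251 arrays.

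**Figure D1:**
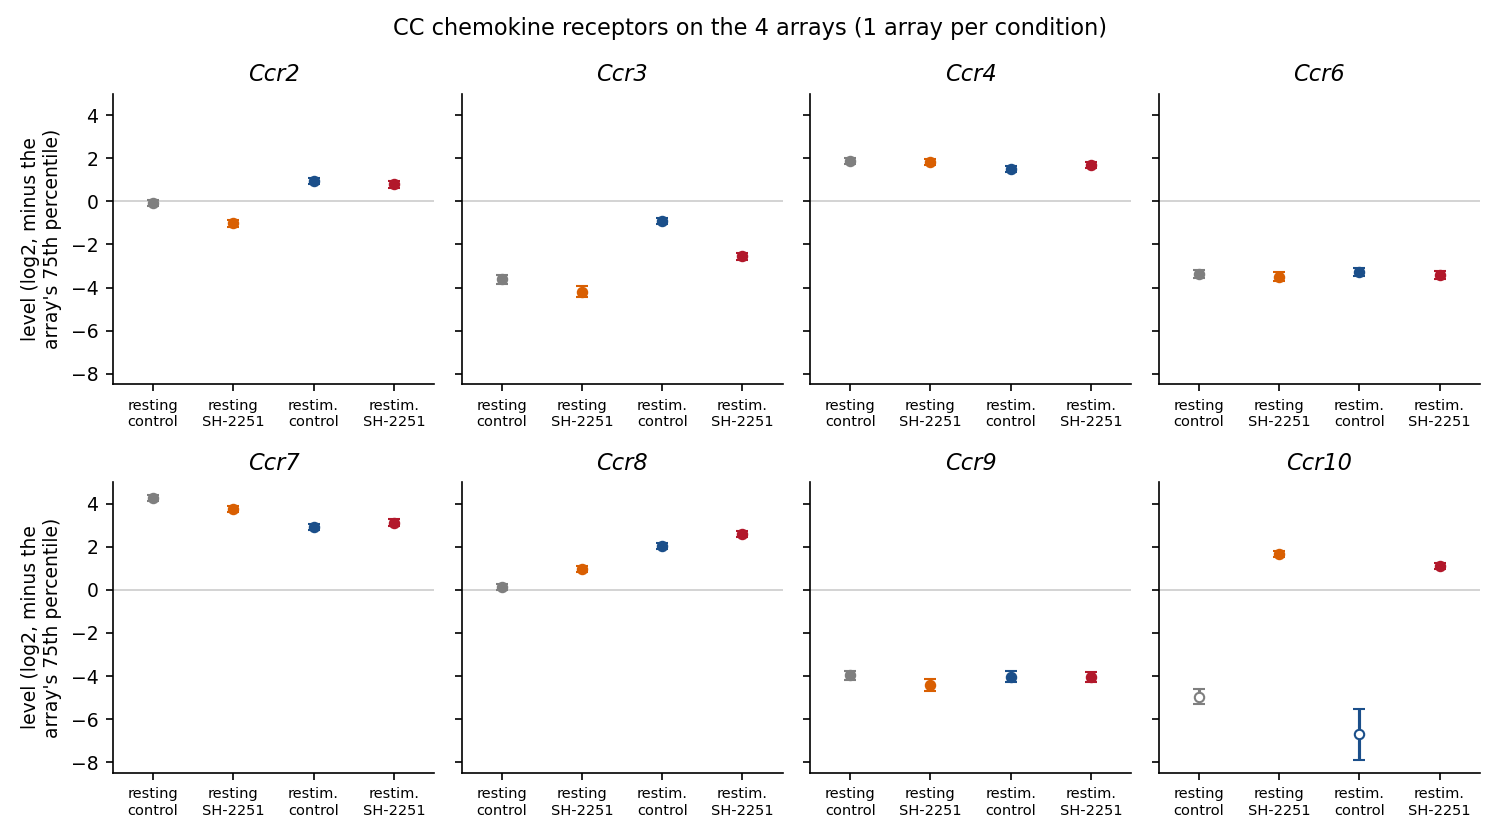
Level of each CC chemokine receptor in the 4 conditions, as log2 intensity minus the array's 75th percentile, for the brighter probe of each gene. Points are single arrays, bars are technical SDs (often smaller than the point) and open points are not well above background. Ccr10 is filled only on the SH-2251 arrays, at 1.67 and 1.11, and Ccr8 lies lowest in resting control cells, at 0.12, and highest in restimulated SH-2251 cells, at 2.59.

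With SH-2251, 1 of the 8 members was at least 2-fold higher in resting cells and none was at least 2-fold lower, beside 2.22% of 12680 genes higher and 2.9% lower. In restimulated cells 1 member was at least 2-fold higher and 1 lower, beside 2.65% and 2.78% of 12619 genes. The median difference of the members was -0.29 in resting and 0.08 in restimulated cells, against -0.06 for all genes in either state. The family therefore had no common direction: 2 members were higher and 6 lower in resting cells, and 4 were higher and 4 lower in restimulated cells.

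**Figure D2:**
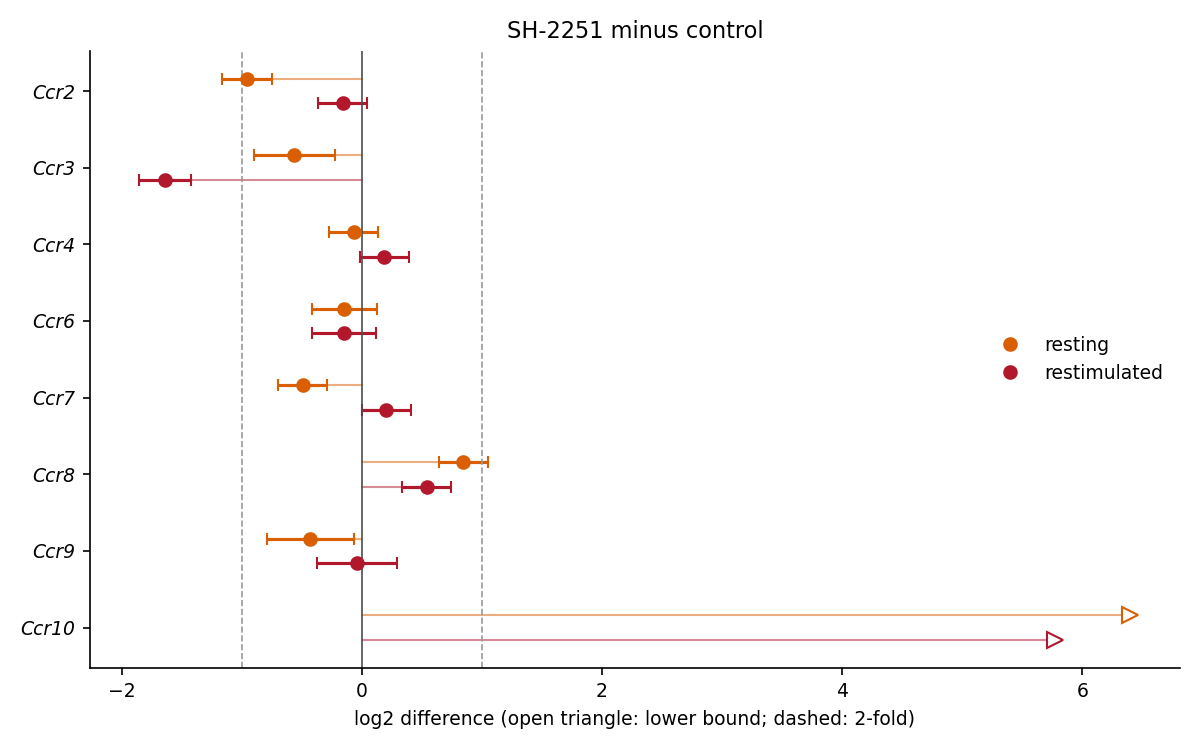
Difference between SH-2251 and control cells in each receptor, on the log2 scale, in resting and in restimulated cells. Filled points are measured differences with their technical SD, open triangles are lower bounds and dashed lines mark 2-fold. Ccr10 stands at bounds of 6.40 and 5.77, and Ccr3 in restimulated cells at -1.63 is the only other value beyond the dashed lines.

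Restimulation moved more of the family. In the control culture, 3 of the 7 members with a value (Ccr2, Ccr3 and Ccr8) were at least 2-fold higher after restimulation and 1 (Ccr7) was lower, beside 7.2% and 7.35% of 12755 genes. In the SH-2251 culture, the same 3 members were at least 2-fold higher and none of the 8 was lower, beside 7.09% and 6.99% of 12609 genes. The median difference of the members was 0.06 and 0.20, against -0.06 and -0.05 for all genes. The 4 arrays serve in both sets of comparisons, so these differences and those with SH-2251 are not independent readings.

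**Figure D3:**
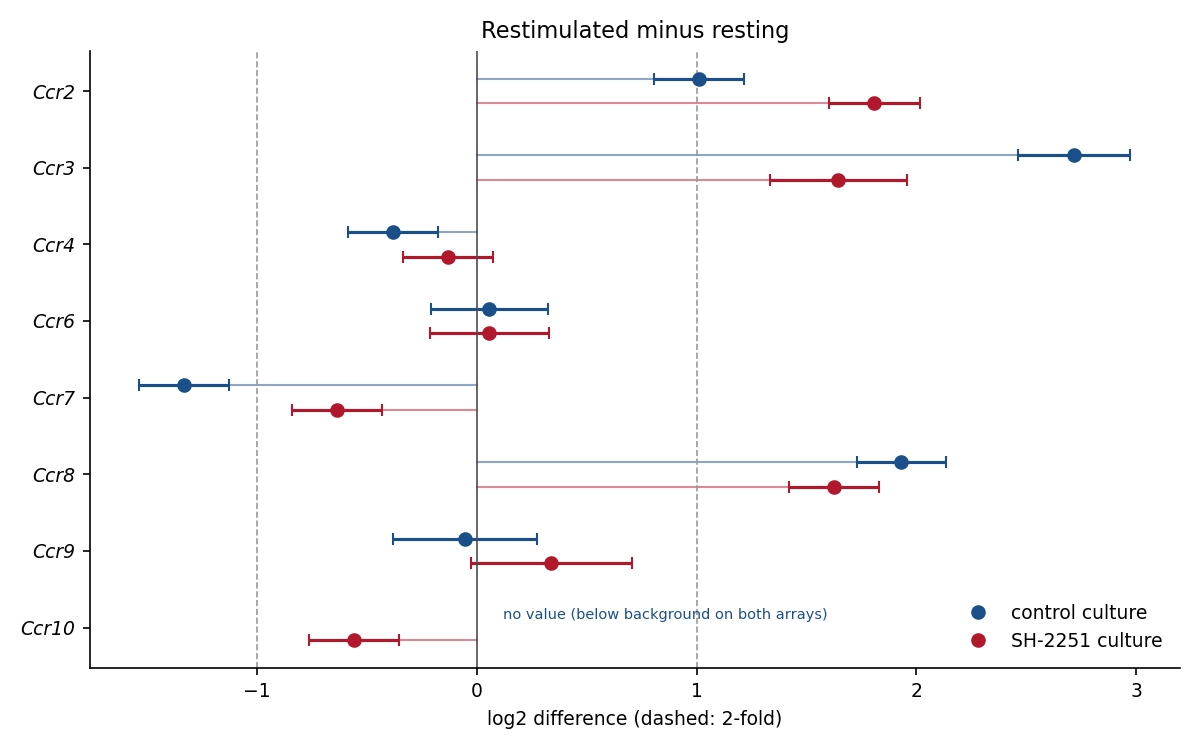
Difference between restimulated and resting cells in each receptor, on the log2 scale, in the control and in the SH-2251 culture, with technical SDs. Ccr2, Ccr3 and Ccr8 lie at or to the right of the upper 2-fold line in both cultures, Ccr7 lies to the left of 0 in both, at -1.33 and -0.63, and Ccr10 has no value in the control culture.

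Ccr10 is the receptor for Ccl27 and Ccl28, chemokines of the skin and of mucosal epithelia. Its intensity was 18.1 in resting control cells, 1959 in resting SH-2251 cells, 4.81 in restimulated control cells and 1262 in restimulated SH-2251 cells. The control spots were not well above background on either array, whereas both SH-2251 spots were bright. Set against the lowest detectable signal of each control array, the SH-2251 value was at least 84.3-fold higher at rest and, after restimulation, at least 54.5-fold higher. These bounds were the highest of 12680 differences in resting cells and the third highest of 12619 in restimulated cells. Under normexp background correction, which raises the dim side, the log2 bounds of 6.40 and 5.77 became 4.28 and 3.96. Within the SH-2251 culture Ccr10 differed by -0.56 on the log2 scale after restimulation (technical SD 0.204), 1.47-fold lower.

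The detection pattern of Ccr10, above background on both SH-2251 arrays and on neither control array, was shared by 73 of the 18539 genes, and 105 genes had the opposite pattern. The median bound of those 73 genes was 0.82 in resting and 0.72 in restimulated cells, so most of them were dim on the SH-2251 arrays too.

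Ccr10 lies on chromosome 11, and the genes next to it in the RefSeq table were read to see whether they moved with it. Plekhh3, its direct neighbour on one side, had levels of -1.15 in resting control, 1.96 in resting SH-2251, -0.38 in restimulated control and 0.67 in restimulated SH-2251 cells. It was above background on all 4 arrays and higher with SH-2251 in both states, by 3.11 (technical SD 0.206) in resting and 1.06 (0.205) in restimulated cells. Its response to restimulation went opposite ways, 0.76 in the control and -1.29 in the SH-2251 culture.

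Cntnap1, which overlaps Ccr10 in the annotation, had levels of -2.75, -2.47, -2.33 and -2.31 in the same order and differed by 0.28 (0.240) and 0.02 (0.226), within 2 technical SDs. Tubg2, beyond Plekhh3, was higher with SH-2251 by 0.65 (0.210) in resting and 0.79 (0.243) in restimulated cells. Ezh1, beyond Cntnap1, was higher by 0.57 (0.206) and 0.47 (0.216). All 4 neighbours thus had positive differences in both states, of at least 2-fold for Plekhh3 and less for the others. Each of these genes was read by 1 probe.

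Around all members together, 27 neighbouring genes were examined, of which 18 were on the arrays and 14 could be compared in each state. At least 2-fold differences with SH-2251 were found for 2 of them, Plekhh3 and Cxcr6, in either state. The shares over all genes were 5.13% in resting and 5.43% in restimulated cells. Cxcr6 was lower with SH-2251 in resting cells (-1.04, SD 0.204) and higher in restimulated cells (1.20, SD 0.204).

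**Figure D4:**
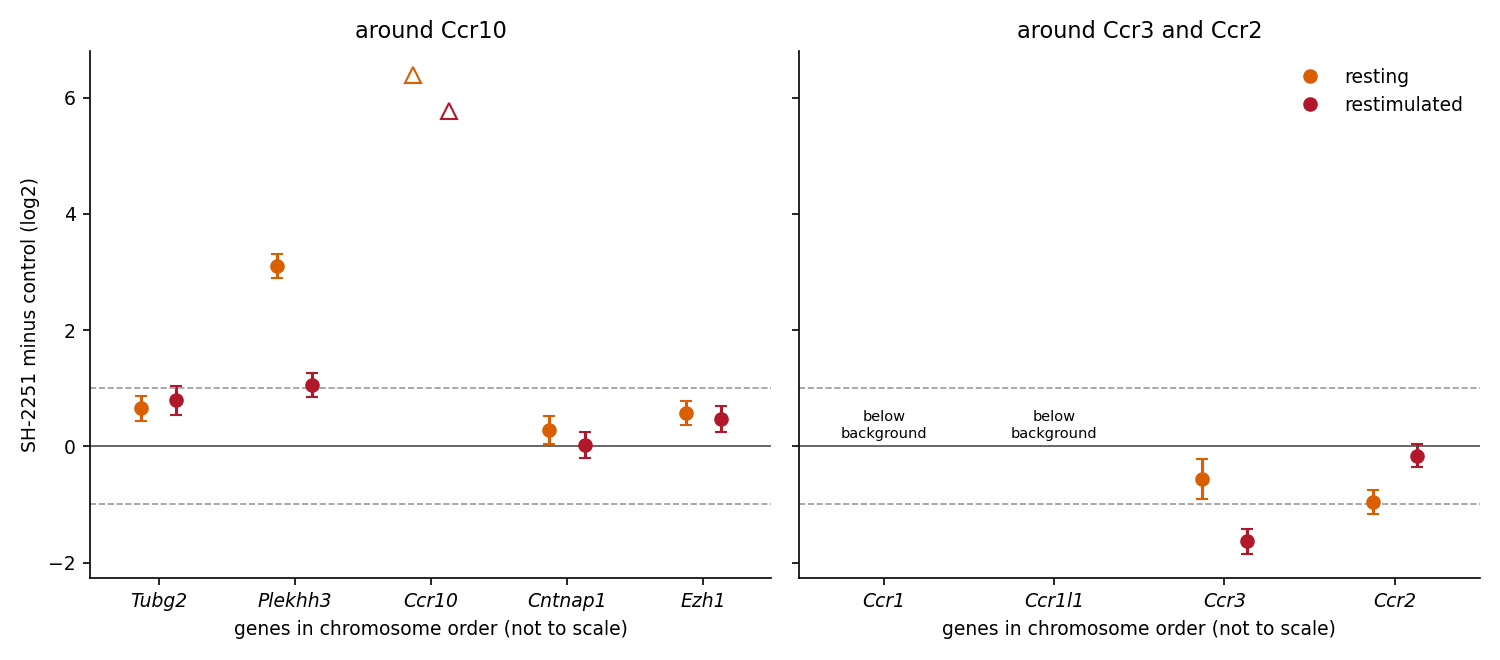
Difference between SH-2251 and control cells for Ccr10 with the 2 genes on each side, and for the chromosome 9 cluster that holds Ccr3 and Ccr2, in gene order and not to scale. Filled points carry technical SDs, open triangles are lower bounds, and Ccr1 and Ccr1l1 were not above background on any array. Plekhh3 stands at 3.11 in resting cells beside the Ccr10 bound of 6.40, and Ccr3 and Ccr2 lie below 0.

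Ccr3, the receptor for the eotaxins, lies in a cluster of receptor genes on chromosome 9. The brighter of its 2 probes had intensities of 45.5 in resting control, 33.7 in resting SH-2251, 266 in restimulated control and 100.04 in restimulated SH-2251 cells. Both resting values were low, and the restimulated control value was the highest. Ccr3 was 6.58-fold higher after restimulation in the control culture (2.72 on the log2 scale, technical SD 0.255) and 3.13-fold higher in the SH-2251 culture (1.64, SD 0.310). With SH-2251 it differed by -0.56 in resting cells (SD 0.338), within 2 technical SDs. In restimulated cells it was 3.1-fold lower (-1.63, SD 0.216), which ranked 133 from the lowest of 12619 genes.

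The difference with SH-2251 thus changed by -1.07 from resting to restimulated cells (SD 0.402), and 0.982% of the 11510 genes above background on all 4 arrays had a change between the states at least as far from 0. The size of the Ccr3 differences depended on how background was treated: with normexp on spots of even background, the response to restimulation was 1.62 in the control and 0.71 in the SH-2251 culture, and the difference with SH-2251 in restimulated cells was -1.10. On all spots, the response in the SH-2251 culture turned to -0.28. The second Ccr3 probe was not above background on any array and gives no value. The eosinophil and basophil markers Epx, Prg2, Siglecf and Mcpt8 were at background on every array. Cpa3, a gene of mast cells and basophils, was above background on all 4 arrays and differed by -0.01 and -0.15 with SH-2251. The part of such cells in the Ccr3 values was not tested.

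Ccr2, a receptor for the monocyte-attracting chemokines such as Ccl2, is the gene next to Ccr3. Its brighter probe had levels of -0.07 in resting control, -1.02 in resting SH-2251, 0.94 in restimulated control and 0.79 in restimulated SH-2251 cells. Both restimulated values lay above both resting values, and the 2 restimulated values were within 2 technical SDs of each other. With SH-2251 Ccr2 differed by -0.95 (SD 0.207) at rest, 1.94-fold lower and just short of 2-fold, and by -0.16 (SD 0.204) in restimulated cells. It was 2.02-fold higher after restimulation in the control culture and 3.5-fold higher in the SH-2251 culture. The value in the control culture sits at the threshold and fell below it, to between 0.90 and 1.00 on the log2 scale, with median centring, quantile normalization, normexp or the mean of both probes. The change of the SH-2251 difference between the states was 0.80 (SD 0.291), and 2.23% of the 11510 genes were at least as far from 0. Over the processing alternatives this change ranged from 0.35 to 0.82. The resting difference with SH-2251 ranged from -1.03, past 2-fold, to -0.56.

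The second Ccr2 probe was dimmer and ordered the conditions alike, with levels of -4.26, -5.36, -3.47 and -3.73. The resting SH-2251 spot was not above background, so that probe gave a bound of -0.39 with SH-2251 in resting cells and of 0.92 after restimulation in the SH-2251 culture. Its measured response to restimulation in the control culture was 0.79 (SD 0.339).

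Ccr2 and Ccr3 thus both had negative differences with SH-2251 in both states and positive differences after restimulation in both cultures, with the SH-2251 differences of Ccr2 in restimulated and Ccr3 in resting cells within 2 technical SDs. Normexp on all spots turned the resting Ccr3 difference to 0.80, and without the spots of uneven background it was -0.19. Ccr1 and Ccr1l1, at one end of the cluster, were not above background on any array. The files hold no probe sequences, so whether probes of related receptors share signal was not tested.

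Ccr8, the receptor for Ccl1 and a receptor of activated Th2 and regulatory T cells, had intensities of 608 in resting control, 1199 in resting SH-2251, 2067 in restimulated control and 3504 in restimulated SH-2251 cells. Its levels, 0.12, 0.96, 2.05 and 2.59, stood in that order with every step beyond 2 technical SDs, a pattern no other member had. Ccr8 was 1.80-fold higher with SH-2251 in resting cells (0.85, SD 0.204) and 1.45-fold higher in restimulated cells (0.54, SD 0.204). It was 3.82-fold higher after restimulation in the control and 3.08-fold higher in the SH-2251 culture. The SH-2251 difference changed by -0.31 (SD 0.289) between the states, which 19.8% of genes equalled or exceeded. Ccr8 also marks regulatory T cells. Of the 5 markers of these cells, 1 (Ikzf2) was at least 2-fold higher and 1 (Ctla4) at least 2-fold lower with SH-2251 in either state. The shares over all genes were 2.22% and 2.9% in resting and 2.65% and 2.78% in restimulated cells. In restimulated cells the Ikzf2 value was a bound of 1.40, since the control spot was not above background. The summed level of the list was 10.5 and 7.75 in resting and 23.9 and 21.8 in restimulated cells, control before SH-2251. Their part in the Ccr8 values was not tested.

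Ccr4, the receptor for Ccl17 and Ccl22 that is used as a Th2 marker, varied least among the bright members. Its levels were 1.88 in resting control, 1.82 in resting SH-2251, 1.499 in restimulated control and 1.69 in restimulated SH-2251 cells. All 4 differences lay within 2 technical SDs, at -0.07 and 0.19 with SH-2251 and -0.38 and -0.13 after restimulation. The second Ccr4 probe, at 1.00, 1.02, 0.67 and 0.84, gave 0.02 and 0.18 with SH-2251 and -0.33 and -0.18 after restimulation, again within 2 technical SDs.

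Ccr7, the receptor for Ccl19 and Ccl21, had intensities of 10697 in resting control, 8328 in resting SH-2251, 3791 in restimulated control and 5091 in restimulated SH-2251 cells. Both resting values were above both restimulated values. Ccr7 was 2.51-fold lower after restimulation in the control culture (-1.33, SD 0.204) and 1.55-fold lower in the SH-2251 culture (-0.63, SD 0.204). With SH-2251 it differed by -0.49 in resting cells (SD 0.204), beyond 2 technical SDs, and by 0.20 in restimulated cells (SD 0.204), within 1. The SH-2251 difference changed by 0.70 (SD 0.289) between the states, and 3.44% of genes were at least as far from 0. Klf2, a transcription factor of quiescent T cells that is often read together with Ccr7, differed by 0.09 and 0.00 with SH-2251, resting cells first.

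Ccr6, the receptor for Ccl20 and typical of Th17 cells, and Ccr9, the gut-homing receptor for Ccl25, were measured close to background. Ccr6 had levels of -3.35, -3.50, -3.29 and -3.44 and no difference beyond 0.15, all within 1 technical SD. Ccr9 had levels of -3.97, -4.40, -4.03 and -4.06, and its largest difference, -0.43 with SH-2251 in resting cells, came with an SD of 0.361. Their intensities were between 29.1 and 55.0 and the technical SDs of their differences between 0.264 and 0.367, so smaller differences were not detectable at this signal.

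Genes whose pattern over the 4 arrays was nearest to a member were found among 11509 other genes above background on all arrays, by the distance between their log2 levels after each gene was centred. The rule was applied to the 4 members that were measured on all arrays and spanned at least 2-fold, that is Ccr2, Ccr3, Ccr7 and Ccr8. Plxnd1, the receptor plexin D1, was nearest to Ccr2 at a distance of 0.08, with differences of -1.05 and -0.19 with SH-2251 beside -0.95 and -0.16 for Ccr2. Mfsd2a (0.19) and Syt12 (0.19) followed. Nearest to Ccr8 was Alcam (0.15), which encodes an adhesion molecule that binds CD6, followed by Foxf2 (0.18) and Dennd4a (0.23). Nearest to Ccr7 were Pglyrp2 (0.12), the tyrosine kinase Syk (0.13) and the transcription factor Stat4 (0.16). Ccr3 had no neighbour as close, with Serpinc1 (0.41), C1qtnf5 (0.42) and Gm6460 (0.43) nearest. With 4 points a pattern, such closeness is a description and many genes can share it.

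The ligands of the members were read next. Of 16 ligand genes on the arrays, 8 were below background on every array: Ccl2, Ccl7, Ccl8, Ccl12, Ccl20, Ccl21a, Ccl22 and Ccl28. Of the 7 with a value in resting cells, none was at least 2-fold higher with SH-2251 and 2 were at least 2-fold lower. The shares over all genes were 2.22% and 2.9%. In restimulated cells 1 of 7 was higher and 2 lower, beside 2.65% and 2.78% of all genes. The list's median was -0.45 in resting and -0.44 in restimulated cells, against -0.06 for all genes.

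**Figure D5:**
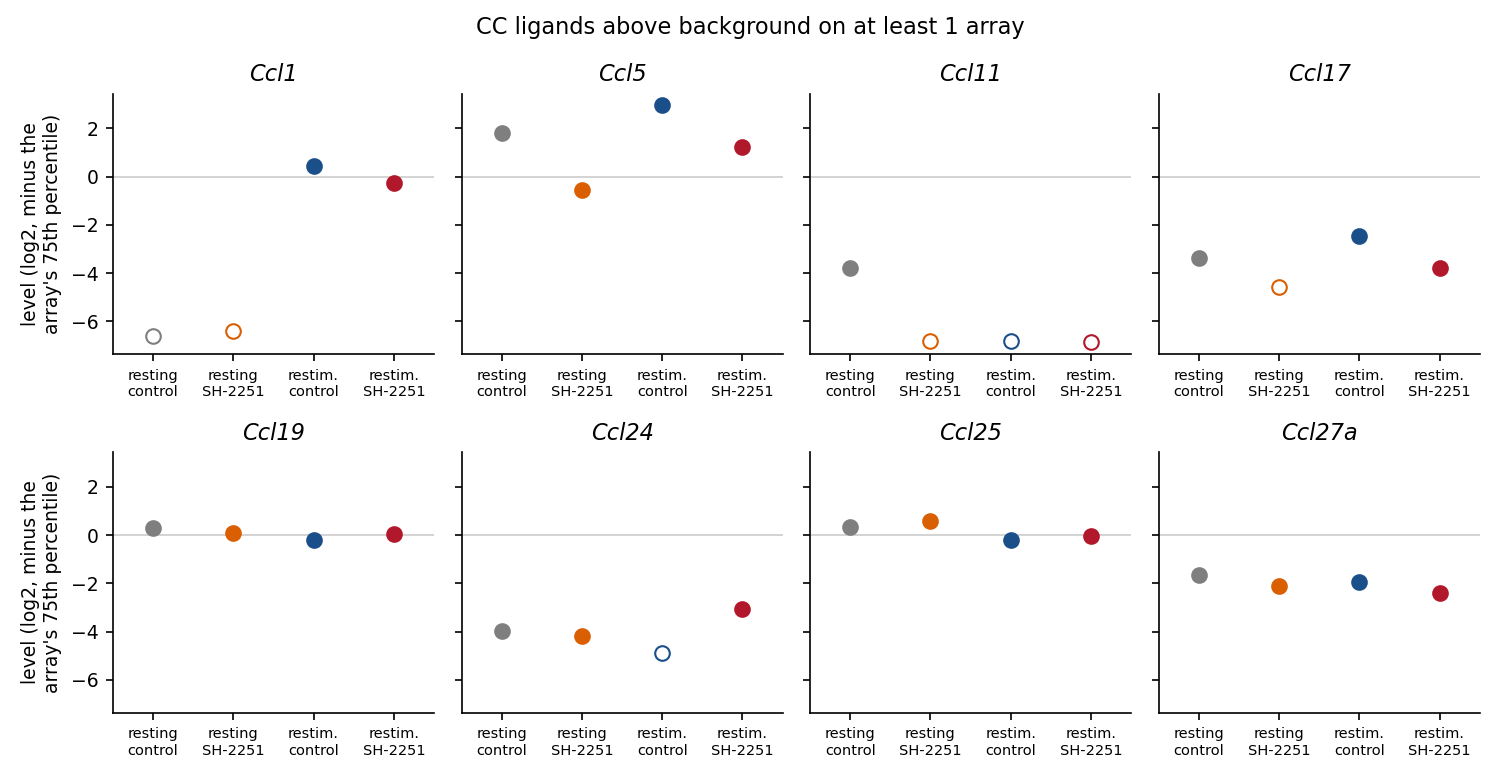
Level of the 8 CC ligand genes that were above background on at least 1 array, as log2 intensity minus the array's 75th percentile, in the 4 conditions. Points are single arrays and open points are not well above background. Ccl5 is lower on both SH-2251 arrays, Ccl1 is filled only after restimulation, and Ccl11 only in resting control cells.

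Ccl5, a ligand of Ccr3, had levels of 1.79 in resting control, -0.57 in resting SH-2251, 2.95 in restimulated control and 1.23 in restimulated SH-2251 cells. It differed by -2.37 (SD 0.205) in resting and -1.72 (SD 0.204) in restimulated cells with SH-2251, the same sign as Ccr3. The resting Ccr3 difference was within 2 technical SDs and changed sign under normexp on all spots. Ccl1, the ligand of Ccr8, was above background only after restimulation, at 0.43 in control and -0.27 in SH-2251 cells, a difference of -0.70 (SD 0.205) opposite in sign to that of its receptor. Ccl17, a ligand of Ccr4, was lower, with a bound of -1.17 in resting and a difference of -1.31 (SD 0.272) in restimulated cells, while Ccr4 itself stayed within 2 technical SDs. Ccl24, an eotaxin, was at least 1.59 higher with SH-2251 in restimulated cells, at a level of -3.06 close to background.

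The remaining ligands with a value are given next. Ccl19, a ligand of Ccr7, differed by -0.22 and 0.24, and Ccl25, the ligand of Ccr9, by 0.24 and 0.18. Ccl27a, a ligand of Ccr10, differed by -0.45 (SD 0.213) and -0.44 (SD 0.217). The Ccl11 probe, for another eotaxin, was above background only in resting control cells, at -3.77, which gave a bound of -0.88 with SH-2251 in resting cells.

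Signalling genes downstream of these receptors were compared in the same way. All 25 on the arrays (G protein subunits, phospholipases, Rac and Rap GTPases, receptor kinases, an arrestin and Rgs proteins) were above background throughout. None was 2-fold different with SH-2251 in either state, near the shares over all genes of 5.13% in resting and 5.43% in restimulated cells. Their medians were -0.21 and -0.10, against -0.06 for all genes in either state. With SH-2251, 19 of the 25 were lower in resting and 16 in restimulated cells. After restimulation 2 were at least 2-fold higher and 2 lower in either culture, near the shares over all genes of 7.2% and 7.35% in the control and 7.09% and 6.99% in the SH-2251 culture. Rgs16 and Rgs2, which speed the shutdown of G protein signals, were higher by 8.10 and 3.17 in the control and by 8.82 and 2.99 in the SH-2251 culture. Arrb1, which encodes β-arrestin 1, differed by -2.28 and -2.08, and Grk6, a kinase that marks active receptors for arrestin, by -1.06 and -1.07. The receptor kinases Grk2 and Grk5 stayed within 2 technical SDs, at -0.15 and 0.30 in the control and 0.02 and 0.06 in the SH-2251 culture.

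Genes that act with chemokine receptors in homing were also read. Of 14 measured, 4 were at least 2-fold higher with SH-2251 and 1 lower in resting cells, and 5 were higher and 2 lower in restimulated cells, beside 2.22% and 2.9% and then 2.65% and 2.78% of all genes, with medians of -0.02 and 0.18. Gcnt1, which builds branched O-glycans of selectin ligands, showed the detection pattern of Ccr10: it was below background in both controls and higher by at least 4.6 in resting and 6.09 in restimulated SH-2251 cells. Fut7 and Fut4, the fucosyltransferases that complete these ligands, were higher by 1.62 and 2.22 in resting and by 2.13 and 1.71 in restimulated cells. St3gal4, a sialyltransferase that also acts in their synthesis, differed by -0.72 (SD 0.205) and -0.60 (SD 0.204). Selplg, the glycoprotein that carries many of them, differed by -0.15 and 0.45.

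Among the integrins, Itgae, whose product binds E-cadherin on epithelium, was higher by 4.54 and 4.89. Itga4, the α4 chain of the gut-homing integrin, differed by -3.70 (SD 0.303) and -2.88 (SD 0.342). Its levels on the SH-2251 arrays, -4.11 and -4.49, were close to background. Itgb7, the β chain that Itgae and Itga4 both pair with, differed by only -0.12 and 0.12. S1pr1, the receptor used to leave lymphoid tissue, differed by -0.63 and -1.78, and Gpr183 was higher by 0.83 and 1.13.

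All 18 transcription factors on a list of those tied to chemokine receptors in T cells could be compared in both states. None was at least 2-fold higher with SH-2251, beside 2.22% of all genes in resting and 2.65% in restimulated cells. At least 2-fold lower were 2 (Maf and Ahr) in resting and 1 (Maf) in restimulated cells, beside 2.9% and 2.78%. In restimulated cells both counts were near these shares. The median of the list was -0.19 and -0.002, against -0.06 for all genes in either state. Maf, a factor of Th2 and other cytokine-producing cells, differed by -1.17 (SD 0.204) and -1.22 (SD 0.204). Ahr differed by -1.26 (SD 0.083) at rest and -0.37 (SD 0.070) after restimulation. Normexp put the resting Ahr value at 0.051 on all spots and at -0.77 without the spots of uneven background, either of which ends its 2-fold call. Vdr and Rara, nuclear receptors for vitamin D and retinoic acid that have been linked to Ccr10 and Ccr9, differed by -0.29 and 0.01 in resting cells. In restimulated cells they differed by -0.996 (SD 0.217) and 0.36 (SD 0.221). Gata3 stayed within 2 technical SDs with SH-2251, at -0.17 and -0.03.

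Markers of other lymphocytes are given beside Ccr10, which plasma cells and some T cells express. Of 5 plasma cell markers, Tnfrsf17 was below background on every array. None differed by 2-fold in resting cells, beside 5.13% of all genes, and the summed level there was 22.7 in control and 16.6 in SH-2251 cells. In restimulated cells 1 (Sdc1) was at least 2-fold lower with SH-2251, beside 2.78% of all genes, and the summed level was 24.4 and 21.0. Among the B cell markers, Ms4a1 was higher by 0.74 in resting and 1.21 in restimulated cells. Cd79b differed by 0.16 and 0.62 and Cd79a by -0.29 and -0.15, and Pax5 and Blk were below background throughout. Among CD8 and NK cell markers, Cd8a was higher by 1.45 and 0.97, and Klrd1 differed by 0.06 (SD 0.221) and 0.60 (SD 0.223). Eomes had the detection pattern of Ccr10, close to background, with bounds of 0.56 and 0.38. Klrb1c and Ncr1 were below background throughout. The summed level of the list was 0.310 and 0.508 in resting and 0.342 and 0.586 in restimulated cells, control before SH-2251. The part of these markers in the Ccr10 values was not tested.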

How the data were processed

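RNA from Th2 cells in 4 conditions, 1 array each, was measured. Per the file headers, the authors deposited scanner files written by Feature Extraction 10.7.3.1 whose intensities were already corrected for background. The authors also deposited normalized log2 values, at least 99.6% of which lay within 0.01 of the log2 intensities minus each array's 75th percentile. The same scaling was computed here from the intensities, without control and outlier spots (77 to 106 per array), and probes were named through RefSeq accessions (27198 of 41174 probes, 66.1%).

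A gene was read by its probe of highest mean level. Where the probe was detected on only 1 array of a pair, a bound was computed against the dim array, from its own signal or the weakest detected signal there, whichever was brighter. No spot of these probes was saturated. The members and lists were chosen with earlier results of these data known. Genes were named if they belonged to the members, to the lists, to the 2 neighbours on each side of a member, or to the 3 genes of most similar pattern, and a few genes of these lists are not reported here. Members were called at 2-fold, with thresholds of 1.5 and 3 as alternatives. Promoters came from a RefSeq table (GRCm38.p6), while the arrays were designed on mm9. The comparison was tested on simulated data. Normexp, planned on mean spot signals, was run on median signals with an offset of 50. Python 3.11.15, pandas 2.3.3, R 4.3.3 and limma 3.58.1 were used.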

Additional observations from a re-analysis of the deposited data

Results flagged for a closer look

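In 3 of the receptors a contrast went one way in one setting and the other way in the other. The difference with SH-2251 was -0.066 at rest and 0.19 after restimulation for Ccr4, and -0.49 and 0.20 for Ccr7. After restimulation, Ccr9 differed by -0.054 in the control and 0.34 in the SH-2251 culture. With 1 array per condition the difference between the settings was not tested. Both Ccr4 and both Ccr9 values lay within 2 technical SDs of 0, as did the Ccr7 value in restimulated cells.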

How the results depend on the processing

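No paired analysis was possible because each condition had 1 array. Median centring, quantile normalization, the authors' values and keeping outlier spots moved no value of a receptor by more than its technical SD. The Ccr2 response to restimulation in the control culture still fell below 2-fold with median centring, quantile normalization, normexp or the mean of all probes. Under those settings Ccr2 left the count of higher members there. Normexp on all spots gave the resting SH-2251 array a fitted background mean of -151.7, against 7.36 to 8.23 on the others, and 7.42 once 12 spots of uneven background were left out. It moved the members' median to 0.70 with SH-2251 in resting cells and to -0.33 after restimulation in the SH-2251 culture, where it reversed Ccr3 to -0.28, Ccl24 to -0.57 and Ahr to -0.22, and it put Ahr at 0.051 with SH-2251 in resting cells. Without those spots Ccr3 after restimulation in the SH-2251 culture was 0.71. Requiring both arrays above background removed Ccr10, so that 0 members were past 2-fold upwards with SH-2251 in either state. With neither filter nor bound, 2 members were lower after restimulation in the control culture. With the mean of all probes, 1 member was lower with SH-2251 in resting cells. At 1.5-fold, 2 members were higher and 1 lower with SH-2251 in resting cells and 1 was lower after restimulation in the SH-2251 culture. At 3-fold, 2 were higher and 0 lower after restimulation in the control culture. Signal over background limits Ccr3 in resting cells and Ccr6 and Ccr9 in all 4 conditions, and 1 array per condition limits every value.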
